A study of Mus musculus with 5 samples.

Results

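The subject is a set of 10 mouse genes of epithelia and gut: the adhesion genes Epcam and Cdh1, the keratin genes Krt8, Krt18, Krt19, Krt7 and Krt80, and the gut genes Cdx1, Vil1 and Vill. They are a fixed list of names, taken from 21883 protein coding genes of the gene table, and the list was drawn up with results of these libraries in view. Their levels are therefore given as descriptions and not as tests. The assay was reduced representation bisulfite sequencing, which reads DNA methylation: DNA is cut at CCGG sites, a size range is kept, and bisulfite treatment tells methylated cytosines of CpG dinucleotides from unmethylated ones. All 5 libraries came from mice of strain C57BL/6x129S6. The control was muscle, and the others were teratomas that formed after embryonic stem cells had been put into tetraploid embryos. A teratoma is a tumour of pluripotent cells that holds a mixture of differentiated tissues. The culture conditions of the stem cells are labelled P5_2iL, P5_2iL_F, P5_a2iL_1 and P5_LCDM_1, the last of which are written below as P5_a2iL and P5_LCDM. The labels do not spell these names out, and give neither the age of the animals nor which muscle was taken. Each group holds 1 library, so a difference below is one between libraries, with no replicate check and no p-value.

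Epithelial cells adhere through E-cadherin, the product of Cdh1, which joins neighbouring cells at adherens junctions, and through EpCAM, a membrane glycoprotein of many epithelia. Their intermediate filaments are built from pairs of 1 type I and 1 type II keratin: Krt8 (type II) pairs with Krt18 (type I) in simple epithelia, joined in many of them by Krt19 (type I) and, in ducts, by Krt7 (type II). Krt80 is another type II keratin. Cdx1 encodes a homeobox transcription factor of the intestinal epithelium and of the embryo's posterior axis, Vil1 encodes villin, which bundles actin in the brush border, and Vill encodes a relative of villin. Methylation of a CpG-dense promoter usually goes with a silent gene, while bodies of genes are commonly methylated whether or not the gene is active. Gene expression was not measured here.

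Krt8 and Krt18 are partner genes that lie close together on chromosome 15, and both have measured CpGs directly upstream of their start. The 250 bases upstream of each start show how differently the pair is built. They come from the RefSeq promoter table of GRCm38.p6 (mm10), which holds 6 of the 10 genes. Each is printed 5′ to 3′ on the coding strand, and the capitals mark CpGs at which at least 1 strand was listed in all 5 libraries.
Krt8, chr15:102004343-102004592, minus strand: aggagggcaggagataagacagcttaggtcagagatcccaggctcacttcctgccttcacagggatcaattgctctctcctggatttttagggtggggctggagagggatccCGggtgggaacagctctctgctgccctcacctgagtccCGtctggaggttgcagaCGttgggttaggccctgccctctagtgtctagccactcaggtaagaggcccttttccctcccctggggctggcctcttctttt
Krt18, chr15:102027966-102028215, plus strand: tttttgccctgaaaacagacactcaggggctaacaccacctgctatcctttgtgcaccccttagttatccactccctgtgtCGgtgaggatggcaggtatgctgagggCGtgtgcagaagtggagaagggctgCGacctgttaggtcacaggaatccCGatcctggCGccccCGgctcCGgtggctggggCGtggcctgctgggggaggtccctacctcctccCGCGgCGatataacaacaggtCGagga
The Krt8 stretch has 3 CpGs and the Krt18 stretch 12, beside a median of 6 over all promoters in the table. All 12 CpGs of Krt18 were measured, with 22 cytosines counted over both strands. Most of these cytosines were listed at 0 in each library, and the highest value was 33.3%, in muscle at the cytosine 169 bases upstream. The 3 CpGs of Krt8 gave 5 cytosines with levels that varied from position to position and between the strands of a CpG. The coding-strand cytosine 83 bases upstream was at 60% in muscle, 66.7% in P5_a2iL and 0% in the other libraries. Its partner on the opposite strand, 82 bases upstream, had 33.3% in muscle, 83.3% in P5_2iL and 66.7% in P5_2iL_F. In P5_a2iL that partner was at 0% and in P5_LCDM at 25%. At the cytosine 99 bases upstream muscle had 88.9%, followed by 100% in P5_2iL and 83.3% in P5_2iL_F, with 50% in P5_a2iL and 50% in P5_LCDM. The coding-strand cytosine of the same CpG, 100 bases upstream, was at 60% in muscle and 100% in each teratoma. At the coding-strand cytosine 138 bases upstream muscle had 60%, with 0% in P5_2iL and P5_2iL_F and 100% in P5_a2iL and P5_LCDM. Upstream stretches of the same length at Epcam, Krt7, Vil1 and Vill hold 8, 16, 5 and 7 CpGs, and none of these was listed in all 5 libraries. The sequence CCGG, searched on both strands, occurred 3 times upstream of Epcam, once upstream of Krt8 and of Vil1, 2 times upstream of Krt18, and not in the Krt7 and Vill stretches, and 47.0% of all 32817 promoters in the table held it. CAGGTG, a sequence bound by repressors of the Snail and Zeb families, occurred 2 times upstream of Epcam and once upstream of Krt8, Krt18 and Krt7. It did not occur in the Vil1 and Vill stretches, and 17.2% of all promoters held it.

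The muscle file listed 4017125 cytosines and the teratoma files 4446459 to 5323090, and 3162868 on chromosomes 1 to 19, X and Y were listed in all 5. No read counts come with the percents, so how many reads stand behind a value is unknown and no interval can be given. The 2 strands of a CpG within 1 library give a measure of error: per cytosine, the spread between strands came to 17.6 percentage points for muscle, 13.9 in P5_2iL and 14.8 in P5_2iL_F, then 16.9 in P5_a2iL and 16.6 in P5_LCDM. Neighbouring cytosines of 1 fragment share their reads, so a mean over many of them can be less precise than their number would make it. For every gene 3 windows were used: both ends, each reaching 1000 bp out of the gene and 500 bp into it, and the body between them. An end is called the start end or the far end for the 6 genes with a strand in the RefSeq table, and the low-coordinate or high-coordinate end for Cdh1, Krt19, Krt80 and Cdx1. Levels are means over cytosines listed in all 5 libraries. A difference between 2 libraries is taken over the cytosines listed in both, 3 or more, and is counted when it reaches 25 points.

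Of the 30 windows of the 10 genes, 20 had 3 or more cytosines in all 5 libraries, namely the 10 bodies and 10 of the 20 ends. The start end of Epcam, both ends of Vil1 and 6 ends of other genes had no cytosine common to the libraries, and the far end of Vill had 2. All genes but Vil1 thus had at least 1 measured end. In bulk tissue, a change in the share of cells that carry a methylated copy and a change within 1 cell type cannot be told apart.

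**Figure D1:**
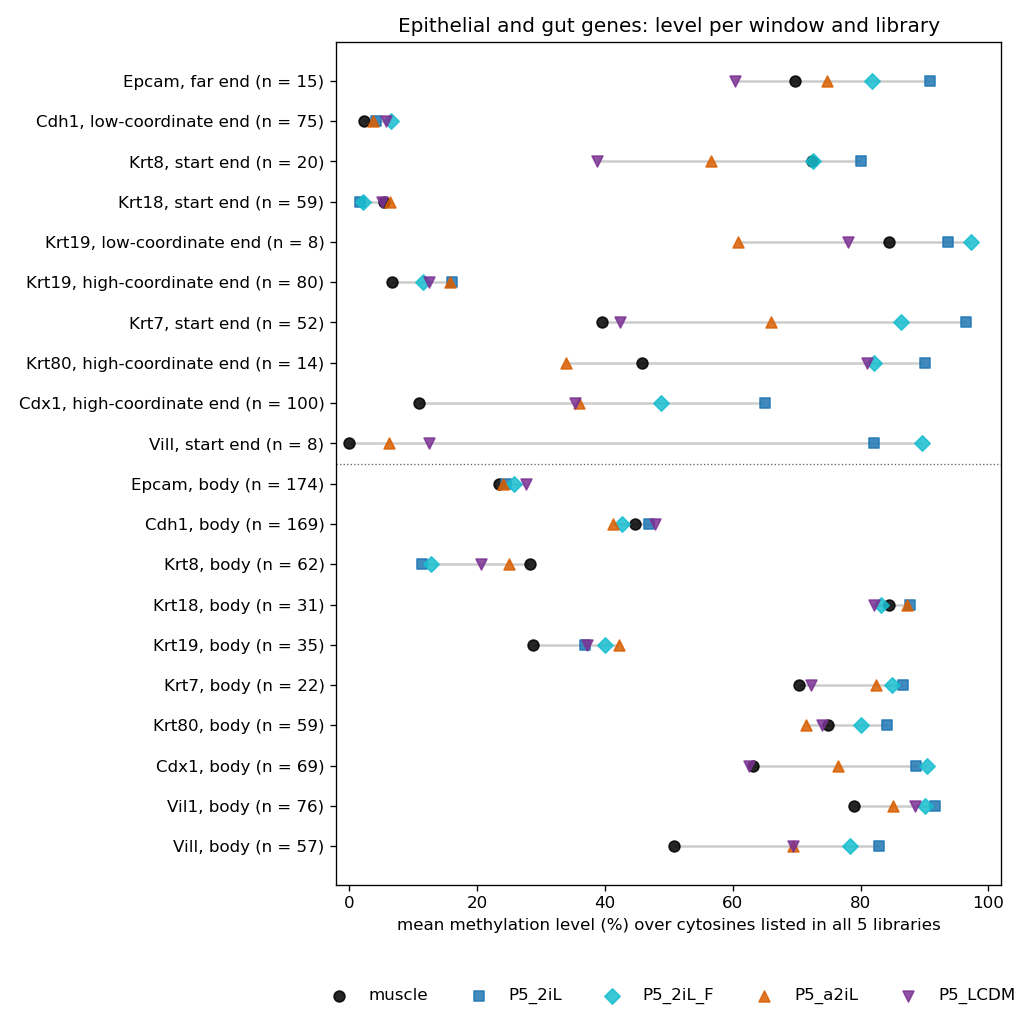
Mean methylation level in percent (horizontal axis) of each measured window of the 10 genes, with 1 point per library and the number of cytosines in brackets. Points of the low-coordinate end of Cdh1 and the start end of Krt18 lie together near 0, while those of Krt7, Krt80, Cdx1 and Vill ends spread widely, with P5_2iL and P5_2iL_F on the right.

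P5_2iL and P5_2iL_F, called both 2iL teratomas below, had higher levels than muscle at ends of the keratin genes Krt7 and Krt80 and the gut genes Cdx1 and Vill. P5_LCDM was higher too at the Krt80 end, and P5_a2iL at the Krt7 end. In P5_2iL, 5 of 21 measured windows of the 10 genes were 25 points or more higher and none lower, while 6.93% of all 35189 windows were higher and 1.36% lower. In P5_2iL_F the count was 6 of 21 higher and none lower, beside 6.35% and 1.26% of 35456. In P5_a2iL 1 of 21 was higher, the start end of Krt7, and none lower, beside 3.88% and 0.962% of 35047. In P5_LCDM 1 of 20 was higher, at Krt80, and 1 lower, at Krt8, beside 3.9% and 1.57% of 35369. The same muscle library stands in all 4 comparisons, so their counts are not independent of each other. The median difference over the measured windows of the 10 genes was 9.33 points in P5_2iL (all windows, 1.84), 11.04 in P5_2iL_F (1.63), 2.78 in P5_a2iL (0.89) and 1.09 in P5_LCDM (0.47). By genes, 4 of the 9 with a measured end were higher at an end in P5_2iL, beside 9.05% of 14998 genes. The list was drawn up with such differences in view, so nothing is read from these shares.

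Among the 10 ends measured everywhere, P5_2iL was the highest library at 6, P5_2iL_F at 3 and P5_a2iL at 1, and muscle was the lowest at 5. Over 18340 ends of all genes P5_2iL was the highest library at 24.1% and muscle the lowest at 34.1%. The 10 bodies gave the order of the whole gene set more closely, with P5_2iL highest at 5 and muscle lowest at 5, beside 42.3% and 47.9% of 16234 bodies.

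Epcam (chr17:87635979-87651127, plus strand) kept a low level in its CpG-dense first part in each library and had high levels further in. A cluster of 129 cytosines from 700 to 1304 bp inside the gene was at 1.19% in muscle, 1.91% in P5_2iL and 3.10% in P5_2iL_F, with 0.805% in P5_a2iL and 8.01% in P5_LCDM. P5_LCDM stood highest here over both strands and on the minus strand (9.70%), whereas on the plus strand it was at 4.39% beside 4.47% in P5_2iL_F. The body as a whole lay between 23.4% in muscle and 27.7% in P5_LCDM. At the far end the 15 cytosines had 69.7% in muscle, 90.9% in P5_2iL and 81.8% in P5_2iL_F, then 74.8% in P5_a2iL and 60.4% in P5_LCDM. That end was 30.6 points lower in P5_LCDM than in P5_2iL, and no comparison with muscle reached 25 points there.

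Cdh1 (chr8:106603350-106670247) also had a low end. Its low-coordinate end (75 cytosines) was at 2.30% in muscle, 4.21% in P5_2iL and 6.60% in P5_2iL_F, with 3.78% in P5_a2iL and 5.76% in P5_LCDM. Further in, P5_LCDM stood apart: over 71 cytosines from 518 to 1433 bp inside the gene, a stretch picked after its values were seen, the level was 24.9% in P5_LCDM, 5.58% in muscle, 12.6% in P5_2iL, 6.14% in P5_2iL_F and 8.39% in P5_a2iL. The whole CpG-dense cluster of 144 cytosines around that end was at 15.0% on the plus strand and 13.1% on the minus strand in P5_LCDM, against 1.91% and 4.04% in muscle. Deeper in the gene, a group of 4 cytosines 7810 bp in was at 70.8% in muscle and lower in each teratoma, with 7.48%, 5.56%, 41.7% and 18.9% in P5_2iL, P5_2iL_F, P5_a2iL and P5_LCDM. Another group of 4 cytosines 13089 bp in went the other way in 3 of the teratomas: 50% in muscle, 97.5% in P5_2iL and 97.9% in P5_2iL_F, then 49.7% in P5_a2iL and 87.1% in P5_LCDM. Each of these groups rests on 4 cytosines, and in muscle the second had 1 plus-strand cytosine at 100% and 1 minus-strand cytosine at 0%. The body of Cdh1, averaged over 169 cytosines, hid both, with levels from 41.3% to 47.9%.

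The low first parts of Epcam and Cdh1 belong, with those of Krt18 and Krt19, to the CpG-dense clusters of 60 or more cytosines below 20% in muscle. In P5_LCDM 3 of these 4 clusters were 5 points or more above muscle, those of Epcam, Cdh1 and Krt19, beside 14.9% of all 8591 such clusters. At Epcam the high P5_LCDM values lay at the inner edge of the cluster and not along it. Up to 1194 bp inside the gene no cytosine exceeded 28.6% in P5_LCDM, and most were at 0. The minus-strand cytosines at 1254, 1267, 1269, 1272 and 1284 bp were listed at 100%, the last of them in muscle too. In P5_2iL 1 of the 4 reached 5 points (7.78% of all), in P5_2iL_F none (7.62%) and in P5_a2iL 1 (9.56%). In P5_2iL and P5_a2iL it was the Krt19 cluster, which was higher there (10.5% and 12.9%) than in P5_LCDM (8.78%). The Krt19 difference was thus not particular to P5_LCDM. It lay near the limit, at 5.24 points in P5_LCDM, which counts, and 4.80 in P5_2iL_F, which does not.

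**Figure D2:**
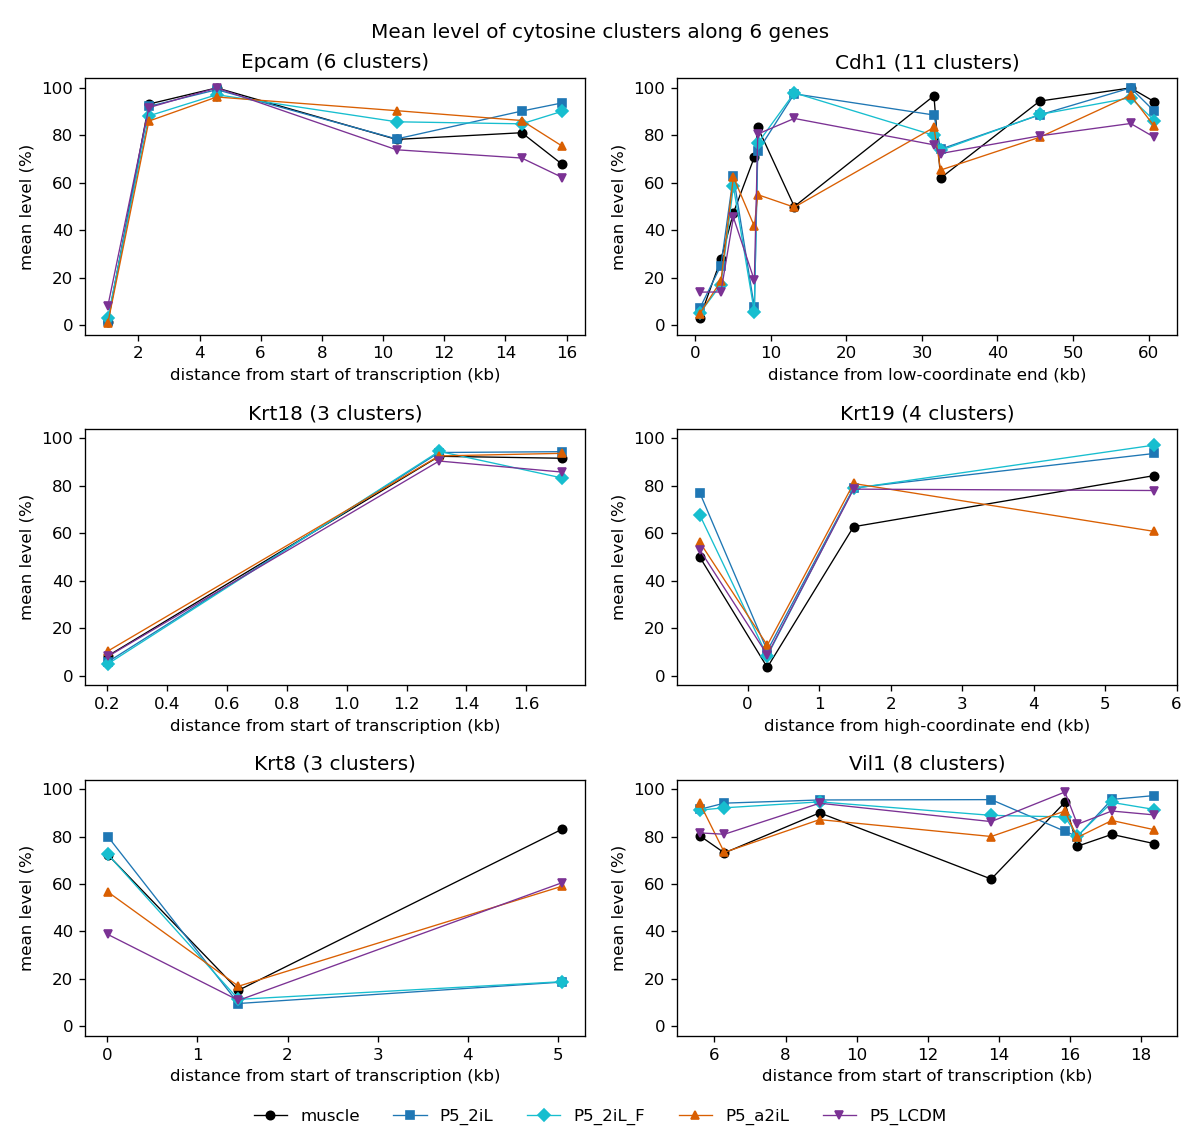
Mean methylation level in percent (vertical axis) of clusters of neighbouring cytosines against distance along the gene in kb, for 6 genes and 5 libraries, where a point is 1 cluster. Epcam, Cdh1, Krt18 and Krt19 have a cluster below 15% near 1 end in each library, and the last Krt8 cluster separates P5_2iL and P5_2iL_F near 19% from muscle at 83.2%.

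Krt18 (chr15:102028216-102032026, plus strand) differed least among the keratin genes. Its start end (59 cytosines) was at 5.39% in muscle, 1.73% in P5_2iL and 2.24% in P5_2iL_F, with 6.36% in P5_a2iL and 5.12% in P5_LCDM, and its body (31 cytosines) ranged from 82.0% to 87.7%. No comparison of 2 libraries reached 25 points at Krt18.

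Its partner Krt8 (chr15:101996711-102004342, minus strand) was methylated around its start. The start end, 20 cytosines from 138 bp before to 148 bp after the start, was at 72.3% in muscle, 80% in P5_2iL and 72.5% in P5_2iL_F, then 56.7% in P5_a2iL and 38.8% in P5_LCDM. P5_LCDM was thus 33.6 points lower than muscle, 41.3 lower than P5_2iL and 29.5 lower than P5_2iL_F. The strands gave different sizes: the mean of P5_LCDM was 40.3% on the plus and 40% on the minus strand, that of muscle 59.3% and 88%, and that of P5_a2iL 22.2% and 93.3%. Taken on the plus strand, the P5_LCDM difference from muscle was -19.0 points, short of the 25. On the minus strand, which is the coding strand, the 10 cytosines of P5_LCDM, P5_2iL and P5_2iL_F were each listed at 0 or 100 and nowhere between. Inside the gene, a cluster of 12 cytosines 4894 bp from the start went the opposite way to most of the set. It was at 83.2% in muscle, 18.7% in P5_2iL and 18.8% in P5_2iL_F, with 59.1% in P5_a2iL and 60.6% in P5_LCDM, and both strands had the low values in P5_2iL (20.5% and 16.8%). A cluster of 50 cytosines 1107 bp in was low everywhere, from 9.64% in P5_2iL to 16.9% in P5_a2iL.

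Krt19 (chr11:100140810-100145926) was low at its high-coordinate end (80 cytosines), with 6.70% in muscle, 16.03% in P5_2iL and 11.6% in P5_2iL_F, then 15.8% in P5_a2iL and 12.5% in P5_LCDM. Muscle was the lowest library there, by 4.85 to 9.33 points. The low-coordinate end rests on 8 cytosines and was at 84.4% in muscle, 93.7% in P5_2iL and 97.2% in P5_2iL_F, with 60.8% in P5_a2iL and 78.1% in P5_LCDM. P5_a2iL was 32.9 points below P5_2iL and 36.4 below P5_2iL_F at that end, and its strands read 53.3% and 77.8% over 3 cytosines each.

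Krt7 (chr15:101412403-101427806, plus strand) had 1 of the widest spreads. The 52 cytosines of its start end all lie 108 to 408 bp inside the gene, and the long noncoding gene Gm671 lies within 1000 bp of Krt7. Their mean was 39.6% in muscle, 96.5% in P5_2iL and 86.3% in P5_2iL_F, then 66.0% in P5_a2iL and 42.3% in P5_LCDM. P5_2iL was 56.9 points above muscle and P5_2iL_F 46.7, and in P5_2iL 48 of the 52 cytosines were higher than in muscle and none lower. P5_a2iL was 26.4 points above muscle over both strands, but -2.68 on the plus strand alone and 54.8 on the minus strand, with muscle at 58.7% on the plus and 21.3% on the minus strand. P5_LCDM and muscle had nearly the same mean but differed at single cytosines. These were 37.6 points apart on average, 25 higher and 26 lower in P5_LCDM. The strands went opposite ways: P5_LCDM was at 37.3% on the plus strand, below muscle, and at 48.7% on the minus strand, above it. Up to 315 bp P5_LCDM was at 34.8% and muscle at 45.8%, and from 326 bp on at 64.9% and 20.8%, a split made after the values were seen. The body (22 cytosines) ran from 70.4% in muscle to 86.7% in P5_2iL.

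Krt80 (chr15:101348315-101370162) had the one end at which P5_LCDM lay beside both 2iL teratomas and P5_a2iL beside muscle. Its high-coordinate end (14 cytosines) was at 45.8% in muscle, 90.1% in P5_2iL and 82.1% in P5_2iL_F, with 33.9% in P5_a2iL and 81.0% in P5_LCDM. P5_LCDM was 35.2 points above muscle and 47.0 above P5_a2iL, and P5_a2iL was 55.4 points below P5_2iL over the 16 cytosines the 2 share. P5_a2iL read 12.5% on the plus strand and 53.6% on the minus strand, the widest gap between strands of the 5 libraries there. About 3 kb inside, 6 cytosines from 3169 to 3440 bp had P5_a2iL and muscle lowest again, with 59.0% in muscle, 94.5% in P5_2iL and 97.6% in P5_2iL_F, then 35.2% in P5_a2iL and 75.0% in P5_LCDM. Other clusters inside the gene did not repeat this order. In the neighbouring cluster of 13 cytosines from 2652 to 2837 bp, P5_a2iL (68.6%) lay beside P5_2iL_F (69.3%). Muscle was at 58.5% there and P5_LCDM was highest at 92.3%. Over 8 cytosines from 18015 to 18172 bp P5_a2iL was the highest library, at 96.1%.

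**Figure D3:**
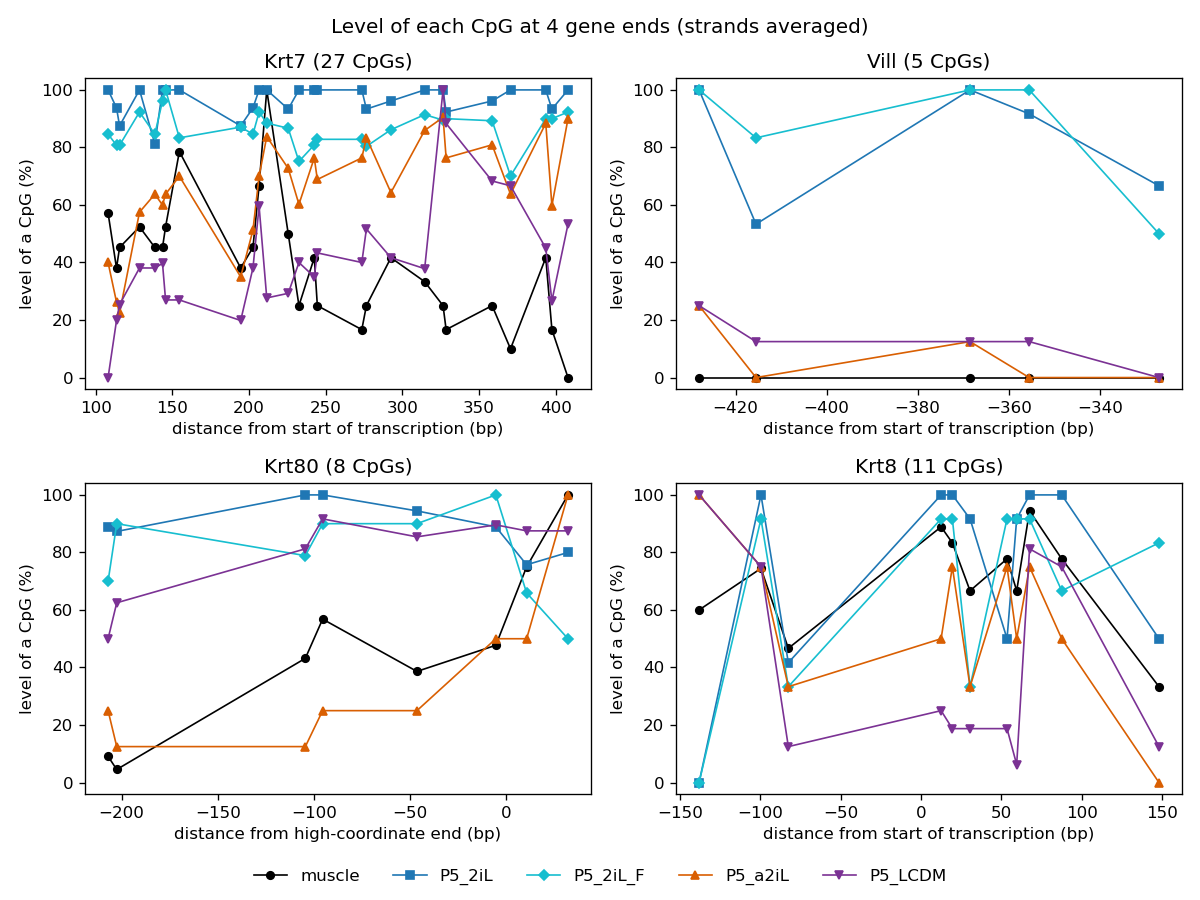
Level of each CpG in percent (vertical axis, strands averaged) against distance in bp from the gene's start or end, for Krt7, Vill, Krt80 and Krt8, with 1 line per library. P5_2iL lies near the top at Krt7 and Krt80, muscle lies at 0 at the Vill CpGs, and at Krt8 the lines cross.

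Among the gut genes, Cdx1 (chr18:61018862-61036199) gave the longest run of measured cytosines. Its high-coordinate end was at 10.9% in muscle, 65.0% in P5_2iL and 48.8% in P5_2iL_F, with 36.0% in P5_a2iL and 35.3% in P5_LCDM over 100 cytosines. Another protein coding gene, Gm52351, lies within 1000 bp of Cdx1. P5_2iL was 52.0 points above muscle and P5_2iL_F 35.1, each over 113 shared cytosines, while P5_a2iL with 24.5 and P5_LCDM with 23.3 stayed just under the 25. All 4 teratomas stood above muscle on either strand. Over the 139 cytosines of the cluster from 216 bp outside to 1141 bp inside, 123 were higher in P5_2iL than in muscle and 5 lower, and in P5_LCDM 77 were higher and 21 lower.

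Along Cdx1 the level was higher further into the gene in each library. In the first 312 bp inside the gene (48 cytosines) muscle was at 8.21%, P5_2iL at 63.0%, P5_2iL_F at 48.7%, P5_a2iL at 38.9% and P5_LCDM at 38.7%. From 434 to 1141 bp (60 cytosines) muscle was at 42.3%, P5_2iL at 89.7%, P5_2iL_F at 87.8%, P5_a2iL at 65.4% and P5_LCDM at 53.0%. Up to 216 bp outside the gene (31 cytosines) the levels were 9.14%, 50.8%, 24.7%, 15.8% and 22.6% in the same order. The 3 stretches were set after the profile was seen. The body (69 cytosines) was at 63.2% in muscle, 88.7% in P5_2iL and 90.3% in P5_2iL_F, then 76.4% in P5_a2iL and 62.5% in P5_LCDM. P5_2iL_F minus muscle in this body, 25.2 points over 75 shared cytosines, was the call nearest to the threshold. P5_a2iL minus muscle at the end, 24.5 points, was the nearest miss. P5_2iL minus muscle in this body was 21.5 points over 76 shared cytosines and was not counted. Over the cytosines listed in all 5 libraries, the levels given above for both of these misses lie 25 points or more apart. Whether they count thus depends on the cytosines used.

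**Figure D4:**
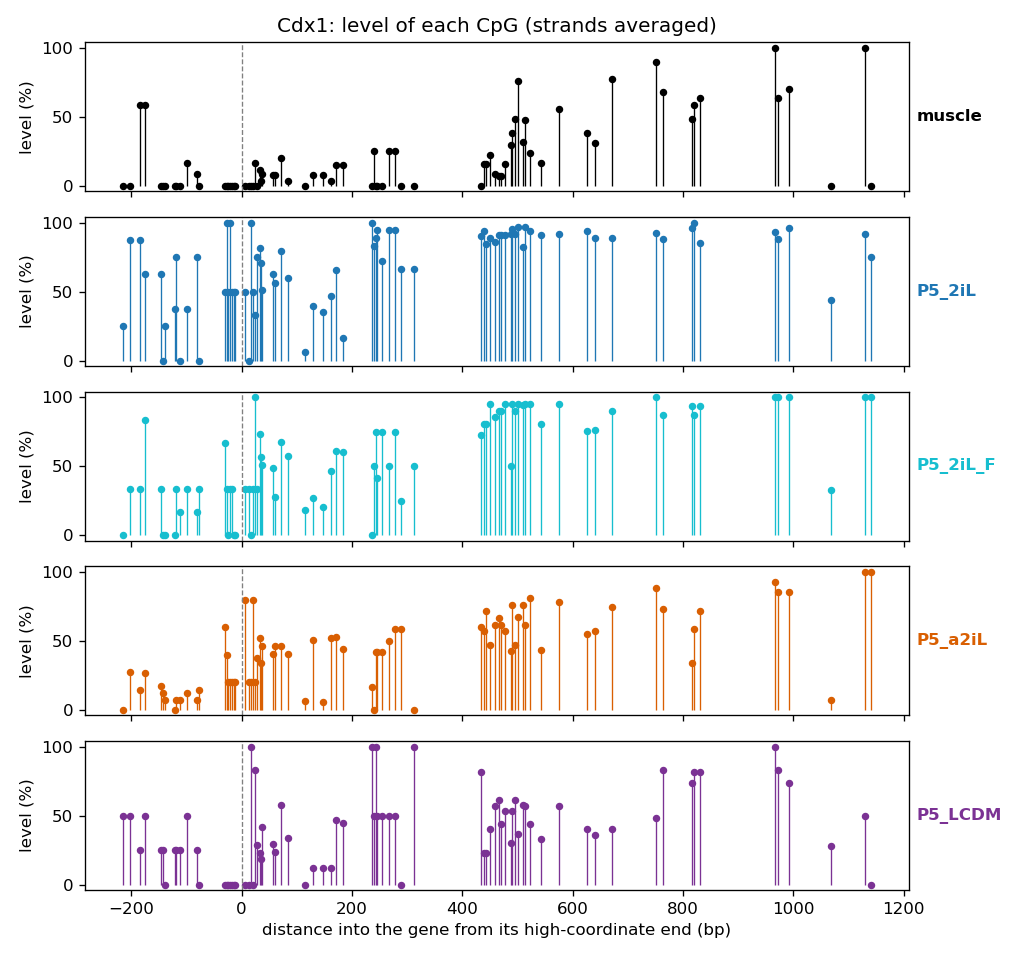
Methylation level in percent of each Cdx1 CpG (vertical axes, strands averaged) against distance in bp into the gene from its high-coordinate end, 1 panel per library. Muscle has most CpGs near 0 up to about 312 bp and higher ones beyond, while P5_2iL has high CpGs throughout.

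Vill (chr9:119052729-119071525, plus strand) had the widest differences of the set. The 8 cytosines of its start end, 428 to 327 bp before the start, were listed at 0% in muscle. Their mean was 82.1% in P5_2iL and 89.6% in P5_2iL_F, with 6.25% in P5_a2iL and 12.5% in P5_LCDM. P5_2iL and P5_2iL_F thus stood 82.1 and 89.6 points above muscle, and P5_a2iL and P5_LCDM 75.8 and 69.6 points below P5_2iL. The 3 cytosines placed on the plus strand read 80% in P5_2iL and the 3 on the minus strand 83.3%, with 0% on both strands in muscle. The body (57 cytosines) also had muscle lowest and both 2iL teratomas highest, with smaller steps: 50.8% in muscle, 82.9% in P5_2iL and 78.3% in P5_2iL_F, then 69.4% in P5_a2iL and 69.5% in P5_LCDM. A cluster of 25 cytosines 17563 bp in, near the far end and the neighbouring gene Plcd1, was 25 points or more higher in each teratoma, with 36.7% in muscle and 85.1%, 82.1%, 64.5% and 62.4% in P5_2iL, P5_2iL_F, P5_a2iL and P5_LCDM.

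Vil1 (chr1:74409384-74435560, plus strand) could be described by its body alone. Its 76 cytosines were at 79.0% in muscle, 91.7% in P5_2iL and 90.1% in P5_2iL_F, with 85.03% in P5_a2iL and 88.6% in P5_LCDM, and no comparison reached 25 points. A cluster of 12 cytosines 13654 bp in had the widest range, with 62.1% in muscle, 95.6% in P5_2iL and 88.9% in P5_2iL_F, then 80.02% in P5_a2iL and 86.3% in P5_LCDM.

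Between the teratomas, P5_2iL and P5_2iL_F did not differ by 25 points in any of the 22 measured windows of the 10 genes, while P5_2iL_F was higher in 0.473% and lower in 0.575% of all 36551 windows. P5_a2iL was lower than P5_2iL in 5 of 22 windows and higher in none, at ends of Krt19, Krt80, Krt7, Cdx1 and Vill, beside 2.44% lower and 1.17% higher of all windows. P5_LCDM was lower than P5_2iL in 5 of 21 and higher in none, at ends of Epcam, Krt8, Krt7, Cdx1 and Vill, beside 4.47% and 1.44%. Against P5_2iL_F, P5_a2iL was lower in 3 of 22 and higher in none (1.95% and 1.03% of all windows), and P5_LCDM was lower in 3 of 21 and higher in none (3.97% and 1.32%). P5_LCDM was higher than P5_a2iL in 1 of 21 windows, at Krt80, and lower in none (1.46% and 2.25%). The comparisons with P5_2iL share that library.

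The same counts were made over finer units. The 10 genes hold 54 clusters of 3 or more cytosines with gaps of at most 200 bp. In P5_2iL 12 were higher and 2 lower than muscle, beside 17.6% and 3.21% of 195451 clusters genome-wide. The counts were 9 and 2 in P5_2iL_F (16.2% and 3.05%), 4 and 2 in P5_a2iL (11.3% and 3.12%), and 5 and 3 in P5_LCDM (9.41% and 7.26%). Of clusters with 3 or more cytosines on each strand, the difference from muscle reached 25 points on each strand separately for 10 of the 10 called in P5_2iL, 6 of 8 in P5_2iL_F, 0 of 3 in P5_a2iL and 3 of 5 in P5_LCDM. Genome-wide those shares were 67.4%, 64.7%, 53.1% and 54.1%.

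Other genes of the same pathways, grouped by role, were mostly below the threshold at their ends. Over all genes with a measured end, 9.05%, 8.67%, 5.87% and 6.08% were higher than muscle at the end that differed most in P5_2iL, P5_2iL_F, P5_a2iL and P5_LCDM, and 2.07%, 2.01%, 1.57% and 2.27% were lower. Of 13 other keratin genes with a measured end, 2 were higher than muscle in P5_2iL, Krt12 (96.7% against 30% at its start end) and Krt13, and none lower. In P5_2iL_F none of 12 was higher and 1 was lower, and in P5_a2iL 1 of 13 was higher and none lower. In P5_LCDM 1 was higher and 2 were lower, Krt5 (25.2% against 68.8%) and Krt4 (52.0% against 88.7%). None of the 5 measured villin and gelsolin relatives and neither Cdx2 nor Cdx4 was called against muscle in any teratoma. Of 19 adhesion and junction genes 1 was higher in each teratoma, the polarity gene Crb3 on 3 cytosines (3.70% in muscle and 57.0 to 69.6 points more in the teratomas), and 2, 0, 0 and 1 were lower in P5_2iL, P5_2iL_F, P5_a2iL and P5_LCDM. Of the 22 epithelial regulators and trafficking genes measured in P5_2iL, 2 were higher, among them Ap1m2, a subunit of an epithelial sorting adaptor, with 76.0% against 46.5% over 52 cytosines, and none lower. Of the 21 measured in each of the other teratomas, 2 were higher and none lower in P5_2iL_F, none higher and 1 lower in P5_a2iL (Ehf, 40.1% against 70.0%), and none in either direction in P5_LCDM. Of the intestine and foregut list, 2 of 20 were higher and 2 lower in P5_2iL and again in P5_2iL_F, with 3 higher and 1 lower of 19 in P5_a2iL and of 20 in P5_LCDM. Its widest differences in P5_2iL were at Ascl2, a factor of intestinal stem cells (89.5% against 25.01% at the far end), and at Cdhr5, a brush border protocadherin (17.8% against 64.2% at the far end, 46 cytosines). Of 7 genes that encode repressors or markers of the non-epithelial state, Snai1 was higher at its far end in P5_2iL (72.8% against 10.4%), P5_2iL_F (56.3%) and P5_a2iL (49.4%), and none was called against muscle in P5_LCDM. Against each other teratoma P5_LCDM was higher at 1 of the 7, Zeb2, and lower at 1, Snai1. Over all genes, 353 of 15269 were higher and 872 lower than in P5_2iL. Other lists differed from P5_2iL too. Lower in P5_LCDM were 3 of 13 keratin genes and 3 of 22 intestine and foregut genes, with none higher. Of 19 adhesion and junction genes 2 were higher and 1 lower. At the far end of Snai1 P5_LCDM was at 16.9% over the 14 cytosines shared with P5_2iL and P5_2iL_F, and at 22.7% over the 9 shared with P5_a2iL. At the start end of Zeb2, a repressor of the epithelial state, it was at 49.0% over 9 cytosines, with 0% in P5_2iL, 0.717% in P5_2iL_F and 0.946% in P5_a2iL. No muscle level is given for that end, and a gene counted as measured when either of its ends was.

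Marker genes of other cell types moved with the same comparisons. Of 18 measured skeletal muscle genes, 13, 14, 10 and 7 were higher than muscle at an end in P5_2iL, P5_2iL_F, P5_a2iL and P5_LCDM and none lower, with median differences of 40.5, 38.8, 28.4 and 21.0 points. Casq1, which had the widest difference of these in P5_2iL, was at 14.3% in muscle and 96.3% in P5_2iL at its start end, on 3 cytosines. Ldb3, the next in width, was at 14.8% in muscle and 79.4% in P5_2iL at its start end, on 22 cytosines. Of measured blood genes 5 of 7, 6 of 8, 3 of 6 and 4 of 7 were lower and 1, 1, 0 and 0 higher, Rac2 being at 94.4% in muscle, 0% in P5_2iL and 1.14% in P5_2iL_F, with 55.6% in P5_a2iL and 57.6% in P5_LCDM. Endothelial genes gave 1 higher and 1 lower of 5 in P5_2iL, 0 and 2 in P5_2iL_F, 2 and 0 in P5_a2iL, and 0 and 2 in P5_LCDM. Of 8 neural genes 3, 2, 3 and 2 were higher in the same order and 1, 1, 0 and 0 lower, the lower one being Syp. Of 6 connective tissue genes 2 were higher in each teratoma and none lower. The part of these cell types in the levels of the epithelial and gut genes was not tested.

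The profile over the 5 libraries was compared with that of all gene ends of 10 or more cytosines, by the mean absolute difference of the levels. For the Krt7 start end the nearest were the start ends of Dio1 (3.19 points) and Fgf6 (5.21), with 82 ends within 10 points. For the Krt80 end they were those of Slc6a14 (4.20) and Lrrc71 (5.43), with 48 ends within 10 points, and for the Cdx1 end those of Cmklr1 (4.43) and Slc4a10 (4.66), with 65.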

How the data were processed

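The authors deposited, per CpG cytosine and library, the percent of methylation, strand by strand, without the coverage. Per the labels' protocols, DNA was prepared with a DNeasy kit, amplified for 15 PCR cycles, size-selected on a gel and sequenced on the Genome Analyzer. The submitters' processing notes name Trim Galore 0.6.4, Bismark and build mm10. For Bismark's version and settings, and for any coverage minimum, nothing is given in the sources used here. PCR copies cannot be recognised, and incomplete conversion would raise levels.

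The second column was read as the position counted from 1: all 433094 listed positions that fall in RefSeq promoter sequences lie at a CG, against 56.1% after a shift of 1 bp. Gene positions and strands came from RefSeq tables of GRCm38.p6. Each cytosine had equal weight. The window code was tested on simulated data at gene ends, and the cluster code was not. The simulation only lowered levels, at ends methylated in muscle, with a fixed number of independent reads per cytosine. Most differences counted against muscle here are gains, so it does not show how well those are found. With 1 library per group no test was possible, and differences of 25 percentage points over 3 or more cytosines were counted. The 10 comparisons were each teratoma with muscle and each pair of teratomas. The genes and the lists of related genes and markers were chosen with earlier results of these data known. All 10 genes are named, and of each list at most the 3 called genes with the largest difference could be named. Clusters, segments and strand readings were added after the data were seen. Alternatives changed the threshold, the minimum of cytosines, the window, the average and the strand. Tools were pandas 2.3.3, NumPy 2.4.6 and matplotlib 3.10.9 under Python 3.11.15.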

Additional observations from a re-analysis of the deposited data

How the results depend on the processing

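The counts of windows that differ by 25 points rest on few windows and moved with the settings. With the median in place of the mean, P5_2iL minus muscle gave 10 windows, P5_a2iL 5, P5_LCDM 4, P5_LCDM minus P5_2iL_F 5 and P5_LCDM minus P5_a2iL 4. At 40 points the counts were 2 for P5_2iL_F minus muscle, 0 for P5_a2iL and P5_LCDM minus muscle, 2 for P5_a2iL and 3 for P5_LCDM minus P5_2iL. At 20 points they were 3 for P5_a2iL minus muscle, 5 for P5_LCDM minus P5_2iL_F and 3 for P5_LCDM minus P5_a2iL. The plus strand alone gave 3 for P5_2iL_F and for P5_a2iL minus muscle, 1 for P5_2iL_F minus P5_2iL and 2 for P5_LCDM minus P5_a2iL. The minus strand gave 4 for P5_LCDM minus muscle, 3 for P5_a2iL minus P5_2iL, 1 for P5_a2iL minus P5_2iL_F and 3 for P5_LCDM minus P5_a2iL. For P5_a2iL minus muscle, strands averaged per CpG gave 3 and cytosines of all 5 libraries 2. With 10 or more cytosines P5_a2iL minus P5_2iL gave 3 and minus P5_2iL_F 1, and ends of 500 bp gave 1 for P5_2iL_F minus P5_2iL. Some alternatives cannot change a called value. A higher minimum of cytosines only drops windows, and a gene body taken with its end parts leaves the ends as they were. With such unchanged values counted in, 285 of 300 values of 31 called differences under alternatives stayed at 25 points or more. Their share is therefore no measure of stability. The sign changed in 1, Krt7 at its start end in P5_a2iL minus muscle (-2.68 on the plus strand). The causes were not tested.

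Cluster settings were chosen after seeing the data. With 10 or more cytosines the counts of called clusters fell to 8, 6, 2 and 4 in P5_2iL, P5_2iL_F, P5_a2iL and P5_LCDM minus muscle, 4 in P5_a2iL minus P5_2iL, 2 in P5_a2iL minus P5_2iL_F and 1 in P5_LCDM minus P5_a2iL, since fewer clusters qualify. With gaps of 100 bp they were 17, 10 and 13 in P5_2iL_F, P5_a2iL and P5_LCDM minus muscle, 1 in P5_2iL_F minus P5_2iL, 11 in P5_LCDM minus P5_2iL and 11 in P5_LCDM minus P5_2iL_F. No paired analysis was possible because each group holds 1 library, and for the same reason no library could be left out. The unknown read depth limits each single percent.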
